A study of Mus musculus with 20 samples.

Results

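Cd80, Cd86, Icosl, Cd274, Pdcd1lg2, Cd70, Cd83, Tnfrsf13b and Tnfrsf13c encode surface proteins by which B cells signal to T cells or receive survival cytokines. These 9 genes were taken as a list by symbol, chosen with earlier results of these data known, and all 9 were found among the 37620 mouse genes of a deposited count table. Messenger RNA had been sequenced from cells enriched with magnetic beads against B220, a form of CD45 carried by B cells and also by plasmacytoid dendritic cells and some other lymphocytes. 8 samples came from VavPBcl2/Myc lymphomas, in which Myc had been transduced, 8 from VavPBcl2/vector lymphomas, which received the empty vector, and 4 from normal spleen. All mice were of the C57BL/6 background, and the labels give no age for any group. Both lymphoma groups carry the VavPBcl2 transgene, whose Vav regulatory sequences drive the apoptosis inhibitor Bcl2 across blood cells and not in B cells alone, whereas the labels name no transgene for normal spleen. The lymphomas therefore differ from each other in Myc, and the vector lymphomas differ from normal spleen in the transgene, the vector and the disease together. The labels do not say whether samples of 1 group are from different animals, so each p-value covers only the spread among the samples given, which may be technical.

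CD80 and CD86 bind CD28, which activates T cells, and CTLA-4, which restrains them, while ICOS ligand (Icosl) binds ICOS and sustains follicular helper T cells. PD-L1 (Cd274) and PD-L2 (Pdcd1lg2) bind the inhibitory receptor PD-1, CD70 binds CD27, and CD83 keeps MHC class II and CD86 at the cell surface. BAFF receptor (Tnfrsf13c) carries the survival signal of the cytokine BAFF to mature B cells through TRAF3 and the kinase NIK (Map3k14) to p100 (Nfkb2) and RelB, the alternative NF-kB pathway, and TACI (Tnfrsf13b) binds both BAFF and its relative APRIL.

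RefSeq promoter sequences (GRCm38.p6, 250 bases before to 50 after the gene's start) were found for 6 of the 9 genes, Cd80, Icosl, Cd274, Pdcd1lg2, Tnfrsf13b and Tnfrsf13c. 4 of them are printed 5′ to 3′ on the gene's strand: Icosl, which differed most between Myc and vector lymphomas, Pdcd1lg2, the member that passed the test between vector lymphomas and normal spleen, and the BAFF-binding receptors Tnfrsf13b and Tnfrsf13c, whose ratio differed between groups. They lie at chr10:78069118-78069417 (plus strand), chr19:29410669-29410968 (plus strand), chr11:61126505-61126804 (plus strand) and chr15:82224331-82224630 (minus strand). Capitals mark matches to GGGNNNNNCC, a loose form of the NF-kB site, on either strand, overlapping matches being run together.
Icosl: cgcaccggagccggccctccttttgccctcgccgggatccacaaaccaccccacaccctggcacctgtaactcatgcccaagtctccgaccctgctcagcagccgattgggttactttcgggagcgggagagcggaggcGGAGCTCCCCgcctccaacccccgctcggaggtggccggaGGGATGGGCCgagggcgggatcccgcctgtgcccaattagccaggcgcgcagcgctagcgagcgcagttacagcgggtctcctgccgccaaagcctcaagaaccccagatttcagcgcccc
Pdcd1lg2: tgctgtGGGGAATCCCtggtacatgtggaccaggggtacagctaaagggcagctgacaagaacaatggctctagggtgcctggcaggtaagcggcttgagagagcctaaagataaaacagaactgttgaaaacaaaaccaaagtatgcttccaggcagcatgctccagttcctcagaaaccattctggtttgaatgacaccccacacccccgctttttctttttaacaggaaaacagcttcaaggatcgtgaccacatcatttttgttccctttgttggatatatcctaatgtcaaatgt
Tnfrsf13b: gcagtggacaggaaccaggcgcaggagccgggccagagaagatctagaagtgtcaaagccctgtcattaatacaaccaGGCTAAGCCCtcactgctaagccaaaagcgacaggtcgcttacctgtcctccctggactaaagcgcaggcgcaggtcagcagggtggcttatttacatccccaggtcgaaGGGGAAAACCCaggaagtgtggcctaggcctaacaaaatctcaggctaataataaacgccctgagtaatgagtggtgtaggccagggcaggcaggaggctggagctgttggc
Tnfrsf13c: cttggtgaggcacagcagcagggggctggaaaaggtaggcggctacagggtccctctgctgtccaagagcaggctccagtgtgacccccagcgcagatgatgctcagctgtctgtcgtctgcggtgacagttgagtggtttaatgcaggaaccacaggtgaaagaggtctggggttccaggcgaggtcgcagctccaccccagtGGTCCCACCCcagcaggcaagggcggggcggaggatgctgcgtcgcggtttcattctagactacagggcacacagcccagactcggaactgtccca
This pattern matched in 5 of the 6 member promoters, all but that of Cd274, and in 50.8% of 32851 mouse promoters of the same length. The stricter GGGANTTTCC, searched on both strands, matched in 0 of 6 and in 0.411% of all promoters. The E-box CACGTG, which Myc with its partner Max binds and which reads the same on both strands, matched in 0 of 6 and in 7.15% of all. A TATA box, searched as TATAAA on both strands, matched in 1 of 6 and in 13.6% of all. The 4 printed windows hold 68% G and C for Icosl, 46% for Pdcd1lg2, 55.3% for Tnfrsf13b and 61.7% for Tnfrsf13c, against a median of 52.7% over all promoters. A match describes the letters of the window and not a bound site.

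Each sample held 28.7 to 56.3 M counts on genes (M for 1e6), 33.5 to 45.7 M in Myc lymphomas, 28.7 to 56.3 M in vector lymphomas and 43.0 to 52.9 M in normal spleen. Myc transcript ranged from 313 to 1646 CPM (counts per 1e6 counts on genes, TMM-scaled) in Myc lymphomas, from 48.4 to 226 in vector lymphomas and from 179 to 343 in normal spleen, so the lowest Myc lymphoma, replicate 5, lay below the highest normal sample. Run numbers place vector replicates 1 to 6 and normal replicate 1 in later sequencing runs (7 samples) and the other 13 samples, with all 8 Myc lymphomas, in earlier runs, so the fits were repeated within the earlier runs, where 8 Myc lymphomas stand against 2 vector lymphomas and 3 normal samples. These 2 vector lymphomas, replicates 7 and 8, are also the only samples with E205 in their titles. The other vector lymphomas have AO55 or AO56. Run set and title series are thus the same split within the vector group, and their effects cannot be told apart. The same limit applies to every comparison with vector lymphomas below that is confined to the earlier runs or adjusted for run set. Of 8 pan-B-cell genes (Ms4a1, Cd79a and Pax5 among them), each was present in every sample. Their summed level was 883 to 5457 CPM in Myc lymphomas (median 1998), 5105 to 9040 in vector lymphomas (median 6344) and 5529 to 6677 in normal spleen (median 6018). All Myc lymphomas but replicate 5 lay below every other sample in this sum. In such bulk samples fewer B cells and less of these RNAs per B cell cannot be told apart.

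All 9 genes fell in Myc lymphomas relative to vector lymphomas, by 0.62 (Tnfrsf13b) to 2.47 (Icosl) on the log2 scale. A gene was called where edgeR's quasi-likelihood test gave a Benjamini-Hochberg adjusted p under 0.05 over 17824 genes, and 21.9% of all genes tested were called lower in this comparison. The median log2 fold change of the 9 genes was -1.66, beside 0.08 over all genes. In 4 of 9 (Cd86, Icosl, Pdcd1lg2 and Tnfrsf13c) every Myc lymphoma lay below every vector lymphoma, which held for 6.38% of all genes. Within the earlier runs 5 of 9 fell (Cd86, Icosl, Cd274, Pdcd1lg2 and Tnfrsf13c), against 4.4% of 18505 genes. With a run term, which only told later from earlier runs, 8 of 9 fell, all but Tnfrsf13b, against 9.77%. These falls depend on the scaling of the libraries: when the 8 pan-B-cell genes were set equal between samples, Icosl was the only member called lower, and Cd80 and Tnfrsf13b were called higher. On that scale 1.21% of all genes were called lower and 85% higher.

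**Figure D1:**
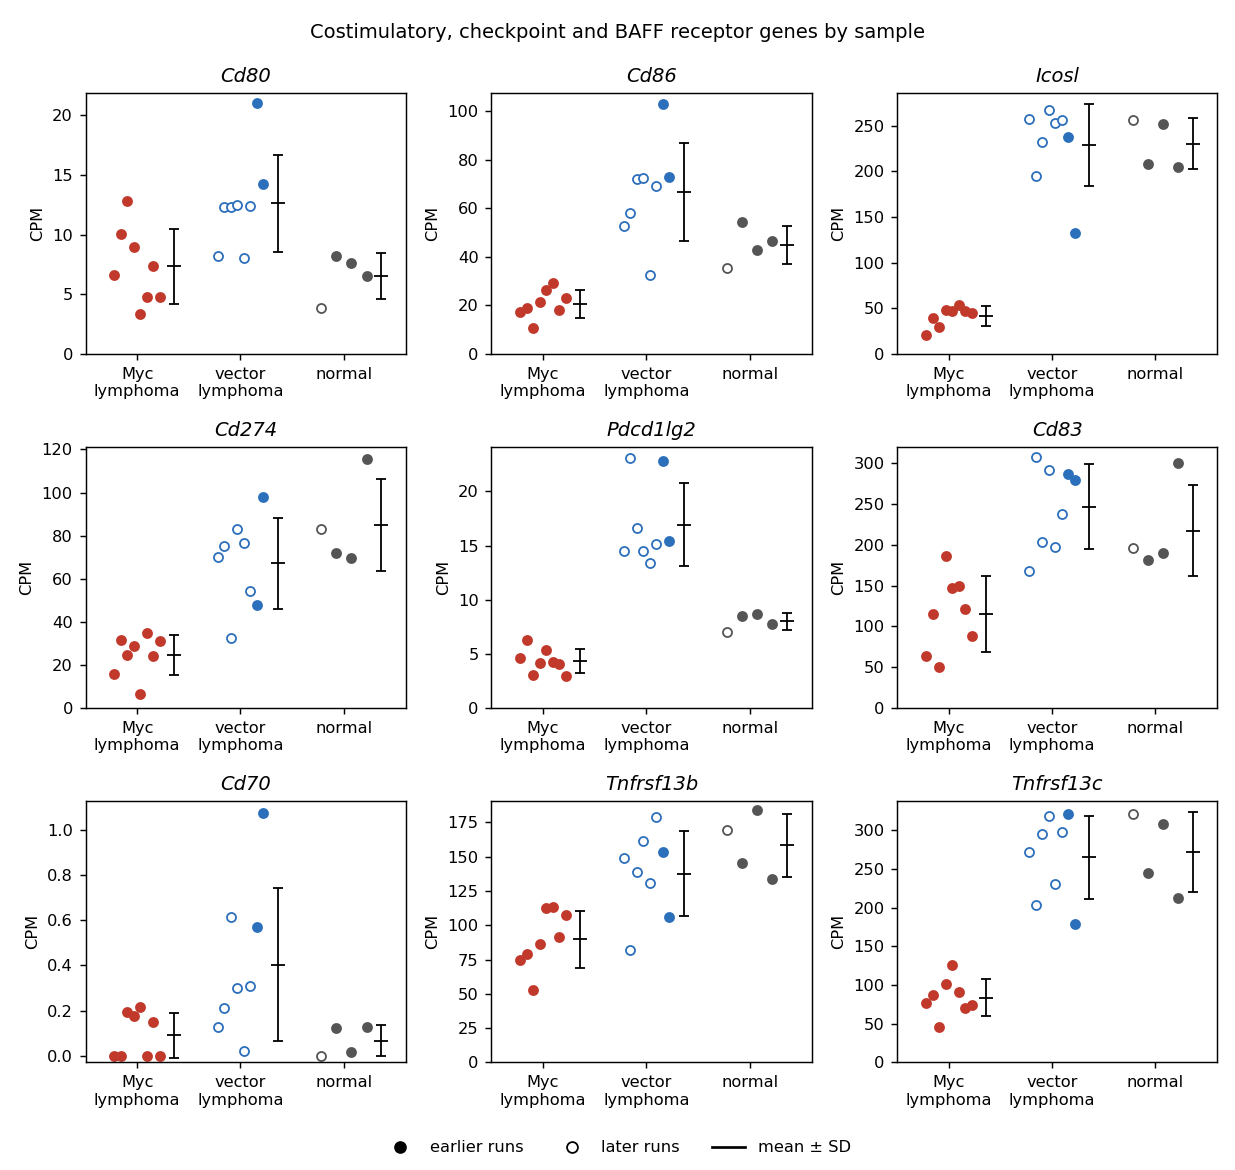
Level of each of the 9 genes in CPM (vertical axes, each of its own range and from 0, or from just below 0 for Cd70) in every Myc lymphoma, vector lymphoma and normal spleen sample; filled points are earlier and open points later sequencing runs, and bars show mean ± SD. Icosl lies between 20.6 and 53.7 CPM in the 8 Myc lymphomas and at 133 CPM or more in all other samples, while Cd80 and Tnfrsf13b overlap between Myc and vector lymphomas.

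Icosl, the ligand of ICOS, had the largest fall of the 9 genes between Myc and vector lymphomas. Its lowest, median and highest levels were 20.6, 45.9 and 53.7 CPM in Myc lymphomas and 133, 245 and 267 CPM in vector lymphomas. Normal samples held 256, 208, 252 and 204 CPM. Every Myc lymphoma lay well below every other sample, and the vector lymphomas spanned the normal range. Icosl averaged 41.2 ± 11.02 CPM in Myc lymphomas, 229 ± 44.7 in vector lymphomas and 230.1 ± 27.9 in normal spleen (SD, n = 8, 8 and 4), and was 5.55-fold lower in the Myc than in the vector lymphomas (-2.47 ± 0.19, the log2 fold change and its SE, with adjusted p = 9.3e-09). Against normal spleen it was 5.58-fold lower in Myc lymphomas (-2.48 ± 0.21, adjusted p = 1.4e-07), and vector lymphomas differed from normal spleen by -0.01 ± 0.22 (adjusted p = 0.99). Within the earlier runs the falls in Myc lymphomas were -2.16 against vector lymphomas (adjusted p = 5.3e-04) and -2.40 against normal spleen (adjusted p = 1.3e-04).

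The CD28 and CTLA-4 ligands differed from each other in their pattern. Cd86 had 10.9, 20.04 and 29.0 CPM (lowest, median, highest) in Myc lymphomas, against 32.7, 70.5 and 103 CPM in vector lymphomas. Normal spleen held 35.5, 54.5, 42.7 and 46.7 CPM of Cd86. No Myc lymphoma reached the lowest vector or normal sample. Cd86 was 3.24-fold lower in Myc than in vector lymphomas (-1.70 ± 0.21, adjusted p = 2.2e-06) and 2.18-fold lower than in normal spleen (-1.13 ± 0.24, adjusted p = 0.0011). Cd80, the scarcer of the pair, had 3.31, 7.003 and 12.8 CPM in Myc lymphomas and 8.05, 12.4 and 21.0 CPM in vector lymphomas. Normal spleen held 3.87, 8.24, 7.66 and 6.50 CPM of Cd80. The Myc lymphomas overlapped both other groups, 5 of 8 lying below all vector lymphomas. Cd80 fell 1.72-fold in Myc relative to vector lymphomas (-0.78 ± 0.26, adjusted p = 0.019; within the earlier runs -1.25, adjusted p = 0.067), and the difference between Myc lymphomas and normal spleen was 0.16 ± 0.32 (adjusted p = 0.71). In vector lymphomas Cd80 was 0.94 ± 0.33 above normal spleen, which missed the threshold in the fit of 20 samples (adjusted p = 0.074) and passed it with DESeq2 (0.97, adjusted p = 0.017), in a fit of these 2 groups alone (0.95, adjusted p = 0.023) and with a run term (1.35, adjusted p = 0.018).

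Both PD-1 ligands fell in Myc lymphomas, but only Pdcd1lg2 differed between vector lymphomas and normal spleen at the threshold; the difference between these effects is tested through the ratio of the pair. Cd274 (PD-L1) had 6.58, 26.7 and 35 CPM (lowest, median, highest) in Myc lymphomas and 32.6, 72.7 and 97.9 CPM in vector lymphomas. Normal spleen held 82.95, 71.8, 69.9 and 116 CPM of Cd274. The highest Myc lymphoma passed the lowest vector lymphoma, and no Myc lymphoma reached normal spleen. Cd274 was 2.71-fold lower in Myc than in vector lymphomas (-1.44 ± 0.27, adjusted p = 2.2e-04) and 3.44-fold lower than in normal spleen (-1.78 ± 0.31, adjusted p = 2.0e-04). In GENCODE vM21 the exons of Cd274 share 511 bases with AC119228.1 on the opposite strand, and the sources used here do not give the strand setting of the counting, so reads of the antisense transcript cannot be told apart from those of Cd274 there. Pdcd1lg2 (PD-L2) had 2.95, 4.22 and 6.25 CPM in Myc lymphomas and 13.4, 15.3 and 23.1 CPM in vector lymphomas. Normal spleen held 7.06, 8.49, 8.70 and 7.75 CPM of Pdcd1lg2. The 3 groups did not overlap, Myc lymphomas being lowest and vector lymphomas highest. Pdcd1lg2 was 3.90-fold lower in Myc than in vector lymphomas (-1.97 ± 0.18, adjusted p = 7.8e-08) and 1.85-fold lower than in normal spleen (-0.88 ± 0.21, adjusted p = 0.0025). It was 2.11-fold higher in vector lymphomas than in normal spleen (1.08 ± 0.22, adjusted p = 0.0035), but within the earlier runs, with 2 vector lymphomas, the difference was 1.21 (adjusted p = 0.16), and on the pan-B-cell scale 1.01 (adjusted p = 0.17).

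Cd70, the ligand of CD27, was close to the limit of detection. The Myc lymphomas held 0, 0, 8, 7, 5, 0, 7 and 0 counts, the vector lymphomas 4, 6, 25, 14, 1, 17, 25 and 59 counts, and normal spleen 0, 7, 1 and 6 counts. Vector lymphomas were higher on the whole but overlapped both other groups. The fall in Myc relative to vector lymphomas was -2.14 ± 0.84 (adjusted p = 0.041; within the earlier runs -3.15, adjusted p = 0.10) and lost its call when Myc replicate 1, 2, 6 or 8 or vector replicate 3, 7 or 8 was left out (adjusted p up to 0.094). The difference between Myc lymphomas and normal spleen was 0.43 ± 1.07 (adjusted p = 0.77) and that between vector lymphomas and normal spleen 2.57 ± 1.11 (adjusted p = 0.15), neither detectable at these counts.

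Cd83, which holds CD86 and MHC class II at the surface, had 50.0, 118 and 186 CPM (lowest, median, highest) in Myc lymphomas. Vector lymphomas had 168, 258 and 307 CPM and normal spleen 196.5, 182, 190 and 300.5 CPM. The highest Myc lymphoma lay within both other groups, and the other 7 lay below them. Cd83 was 2.14-fold lower in Myc than in vector lymphomas (-1.10 ± 0.23, adjusted p = 6.4e-04; within the earlier runs -1.29, adjusted p = 0.051) and 1.88-fold lower than in normal spleen (-0.91 ± 0.27, adjusted p = 0.011). Without normal replicate 4, the highest normal sample, the difference from normal spleen was -0.70 (adjusted p = 0.071), and within the earlier runs -0.93 (adjusted p = 0.060).

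The BAFF-binding receptors fell unequally. Tnfrsf13c, the BAFF receptor, had 46.4, 81.3 and 126 CPM (lowest, median, highest) in Myc lymphomas and 179, 283.5 and 321 CPM in vector lymphomas. Normal spleen held 321, 245, 308 and 212 CPM of Tnfrsf13c. Every Myc lymphoma lay below every other sample. Tnfrsf13c was 3.16-fold lower in Myc than in vector lymphomas (-1.66 ± 0.18, adjusted p = 7.3e-07) and 3.24-fold lower than in normal spleen (-1.70 ± 0.21, adjusted p = 7.5e-06). Tnfrsf13b, which encodes TACI, had 53.2, 88.7 and 113 CPM in Myc lymphomas and 82.1, 144 and 179 CPM in vector lymphomas. Normal spleen held 170, 145, 184 and 134 CPM of Tnfrsf13b. The Myc lymphomas overlapped the vector lymphomas and lay below all normal samples. Tnfrsf13b was 1.53-fold lower in Myc than in vector lymphomas (-0.62 ± 0.17, adjusted p = 0.0055; with a run term -0.53, adjusted p = 0.13, and within the earlier runs -0.52, adjusted p = 0.28) and 1.76-fold lower than in normal spleen (-0.82 ± 0.20, adjusted p = 0.0036). Vector lymphomas differed from normal spleen by -0.04 ± 0.22 for Tnfrsf13c (adjusted p = 0.94) and by -0.20 ± 0.21 for Tnfrsf13b (adjusted p = 0.59).

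Counted together, 7 of 9 genes fell in Myc lymphomas relative to normal spleen, all but Cd80 and Cd70, where 17.9% of all genes were called lower. In 6 of 9 (Cd86, Icosl, Cd274, Pdcd1lg2, Tnfrsf13b and Tnfrsf13c) every Myc lymphoma lay below every normal sample, against 14.3% of all genes. The median log2 fold change of the 9 was -0.91, beside 0.08 over all genes, and within the earlier runs 6 of 9 fell, against 7.97%. Between vector lymphomas and normal spleen 1 of 9 was called, Pdcd1lg2, which was higher with no overlap. This is close to the share of all genes called higher (7.46%) or lying wholly above normal spleen (7.33%), so the count is not a result about the 9 genes. Within the earlier runs edgeR's quasi-likelihood test called 0 of 9 there (4 at an unadjusted p under 0.05), against 0.665% of all genes in either direction, and over 20 samples DESeq2 called 2 of 9, Cd80 and Pdcd1lg2. The comparisons share samples, so their values stand side by side and are not independent of each other.

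**Figure D2:**
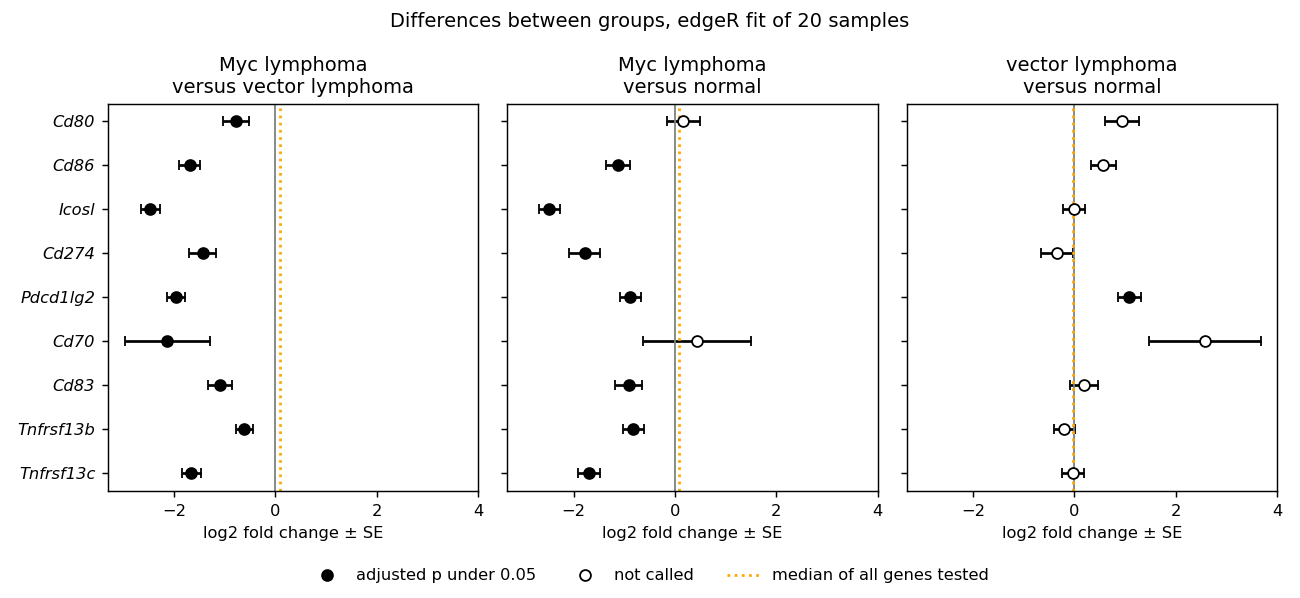
Log2 fold change ± SE of each gene (horizontal axes) in Myc against vector lymphomas, Myc lymphomas against normal spleen and vector lymphomas against normal spleen, from a fit of 20 samples; filled points have an adjusted p under 0.05, open points do not, and the dotted line is the median of all genes tested. All 9 points are filled and below 0 in the first panel, 7 in the second, and in the third Pdcd1lg2 alone is filled, at 1.08.

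Pan-B-cell genes moved with the members. 7 of the 8 fell in Myc relative to vector lymphomas (median log2 fold change -1.81), beside 21.9% of all genes. Relative to normal spleen 6 of 8 fell (median -1.79), beside 17.9%. Between vector lymphomas and normal spleen 0 of 8 were called by edgeR's quasi-likelihood test or DESeq2 (2 of 8 at an unadjusted p under 0.05). The counts were therefore refitted with the summed counts of these 8 genes set equal in every sample, which moved the median log2 fold change of all genes to 1.88 in Myc against vector lymphomas and to 1.82 against normal spleen. On that scale 85% of all genes were called higher and 1.21% lower in Myc than in vector lymphomas (77.1% and 0.589% against normal spleen). Icosl was called lower in both comparisons, by -0.79 ± 0.25 against vector lymphomas (adjusted p = 0.0059) and by -0.86 ± 0.30 against normal spleen (adjusted p = 0.013). Cd80 was called higher, by 1.28 ± 0.42 (adjusted p = 0.0072) and 2.11 ± 0.57 (adjusted p = 0.0020), and so was Tnfrsf13b, by 1.08 ± 0.25 (adjusted p = 3.0e-04) and 0.81 ± 0.31 (adjusted p = 0.022). The other 6 genes were not called in either comparison, with Tnfrsf13c at 0.02 ± 0.24 and -0.09 ± 0.29, Cd86 at -0.01 ± 0.25 and 0.44 ± 0.31, and Cd274 at 0.34 ± 0.39 and -0.01 ± 0.47. As with TMM, all 9 genes lay below the median of all genes in Myc against vector lymphomas, and 7 of 9 did so against normal spleen, where Cd80 (2.11) and Cd70 (1.96) lay above it. Rescaling moves the genes and their median together, so this position is not a separate result of that scale. Icosl was also the only member called lower when the geometric mean of the 8 genes was used or Myc replicate 5 was left out, whereas Cd83, Pdcd1lg2 and Cd86 were called higher in some of these fits. Which scaling reflects a single B cell was not tested.

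**Figure D3:**
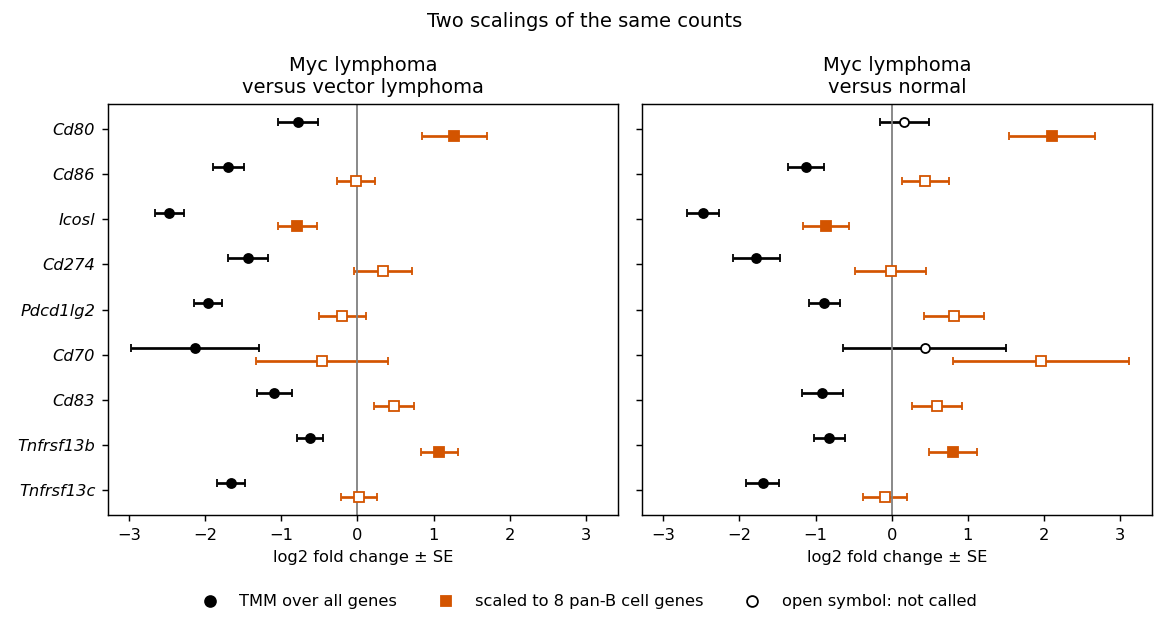
Log2 fold change ± SE of each gene (horizontal axes) in Myc against vector lymphomas and in Myc lymphomas against normal spleen, with libraries scaled by TMM over all genes (circles) or by the summed counts of 8 pan-B-cell genes (squares); open symbols were not called. Icosl is filled and below 0 under both scalings, at -2.47 and -0.79 against vector lymphomas, while Tnfrsf13b is at -0.62 and 1.08.

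Ratios of genes within a sample do not depend on the scaling, and 3 pairs that share a binding partner were compared (9 tests, exact two-sided permutation of the mean log2 ratio, Benjamini-Hochberg adjusted). The count ratio of Tnfrsf13b to Tnfrsf13c was 0.854, 1.06 and 1.46 (lowest, median, highest) in Myc lymphomas and 0.404, 0.527 and 0.601 in vector lymphomas. In normal spleen it was 0.529, 0.594, 0.598 and 0.633. All Myc lymphomas lay above all other samples. In Myc lymphomas the ratio was 2.09-fold that of vector lymphomas (difference 1.06 on the log2 scale, higher in 8 of 8, exact permutation p = 1.55e-04, the smallest possible, adjusted p = 0.0014) and 1.84-fold higher than in normal spleen (0.88, 8 of 8, exact permutation p = 0.00202, the smallest possible, adjusted p = 0.00909). Within the earlier runs the differences were 1.02 and 0.83, with all 8 Myc lymphomas above both groups and the smallest exact permutation p that these numbers allow (0.022 and 0.0061, adjusted p = 0.10 and 0.055). Vector lymphomas and normal spleen differed by -0.18 (exact permutation, adjusted p = 0.13).

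The ratio of Pdcd1lg2 to Cd274 was 0.158, 0.243 and 0.511 (lowest, median, highest) in vector lymphomas and 0.0856, 0.119, 0.125 and 0.0673 in normal spleen. All 8 vector lymphomas lay above normal spleen, and the ratio was 2.70-fold higher (1.44 on the log2 scale, exact permutation, adjusted p = 0.0121; adjusted p = 0.055 without normal replicate 1 or 4, and 0.18 within the earlier runs). In Myc lymphomas the ratio was 0.0957, 0.158 and 0.813, the highest value being that of replicate 5. It differed by -0.45 from vector lymphomas (adjusted p = 0.301, and -0.75 with 0.044 without Myc replicate 5, exact permutation) and by 0.99 from normal spleen (adjusted p = 0.0961, exact permutation). The ratio of Cd86 to Cd80 was 0.849, 2.50 and 7.75 in Myc lymphomas, 4.04, 5.32 and 6.42 in vector lymphomas, and 9.09, 6.59, 5.56 and 7.14 in normal spleen. Myc lymphomas spread most, with 5 of 8 below every vector lymphoma and 1 above all. The ratio missed the threshold in Myc lymphomas against vector lymphomas (-0.85, adjusted p = 0.052; -1.05 and 0.012 without Myc replicate 5, exact permutation) and against normal spleen (-1.26, adjusted p = 0.0545; -1.46 and 0.027 without Myc replicate 5, exact permutation). It was lower in vector lymphomas than in normal spleen (-0.41, exact permutation, adjusted p = 0.0318), a call lost when any of 8 of the 12 samples was left out.

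**Figure D4:**
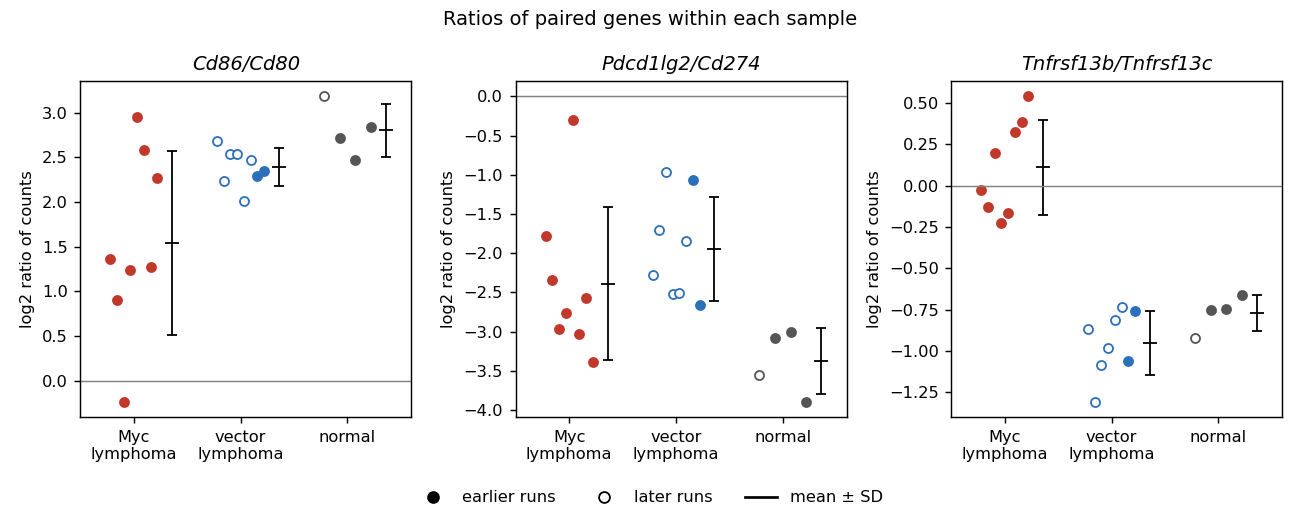
Log2 ratio of counts within each sample (vertical axes) for Cd86 to Cd80, Pdcd1lg2 to Cd274 and Tnfrsf13b to Tnfrsf13c in Myc lymphomas, vector lymphomas and normal spleen; filled points are earlier and open points later runs, and bars show mean ± SD. For Tnfrsf13b to Tnfrsf13c the 8 Myc lymphomas lie between -0.23 and 0.54, above all other samples, which end at -0.66.

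Per kilobase of merged exons (GENCODE vM21), Tnfrsf13c had the highest level of the 9 genes in vector lymphomas and normal spleen, and Cd83 in Myc lymphomas. In Myc lymphomas the mean levels were 44.8 ± 17.9 CPM per kb for Cd83, 40.9 ± 11.5 for Tnfrsf13c and 31.6 ± 7.40 for Tnfrsf13b, with overlapping ranges of mean ± SD, and then 8.92 ± 2.38 for Icosl. In vector lymphomas they were 129 ± 26.4 for Tnfrsf13c and 95.8 ± 20.2 for Cd83, followed by 49.5 ± 9.68 for Icosl and 48.5 ± 10.99 for Tnfrsf13b, which did not differ beyond their spread. In normal spleen they were 132.5 ± 25.3 for Tnfrsf13c, 84.4 ± 21.7 for Cd83, 55.8 ± 8.01 for Tnfrsf13b and 49.8 ± 6.03 for Icosl (SD, n = 8, 8 and 4 in the 3 groups). Cd274, Cd86, Pdcd1lg2, Cd80 and Cd70 followed in that order in all 3 groups, the first pair within each other's spread in Myc and vector lymphomas. All genes were read in the same samples, so these spreads do not test the order of genes within a sample. Myc lymphomas varied most in Cd80 (coefficient of variation 43.1%), Cd83 (39.9%) and Cd274 (38.1%), leaving out Cd70, and least in Tnfrsf13b (23.4%).

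Of 13 genes of the BAFF and APRIL pathway, 10 fell and 0 rose in Myc relative to vector lymphomas by edgeR's quasi-likelihood test (0 also at an unadjusted p under 0.05 and by DESeq2; median log2 fold change -1.07, 4 of 13 within the earlier runs), where 21.9% of all genes were called lower and 26.6% higher. Within the earlier runs 4.4% of all genes were called lower. On the pan-B-cell scale 7 of 13 were called higher and 0 lower (0 at an unadjusted p under 0.05), beside 85% and 1.21% of all genes. Nfkb2, Traf5, Map3k14 and Relb were not called on that scale. Nfkb2, the p100 precursor, averaged 56.2 ± 14.1 CPM in Myc and 211 ± 34.3 CPM in vector lymphomas (-1.91 ± 0.16, adjusted p = 2.8e-08). Traf5, an adaptor of these receptors, averaged 33.9 ± 8.10 and 106 ± 23.1 CPM (-1.64 ± 0.17, adjusted p = 2.7e-07), and Map3k14 43.8 ± 9.26 and 133.5 ± 34.2 CPM (-1.61 ± 0.17, adjusted p = 3.1e-07), in Myc and vector lymphomas. Relb, the partner of the processed p100, fell by 1.28 ± 0.17 (adjusted p = 4.2e-06). Relative to normal spleen 9 of 13 fell and 1 rose, beside 17.9% and 21.5% of all genes (7 and 1 within the earlier runs, and 9 and 2 by DESeq2). Within the earlier runs 7.97% of all genes were called lower there. On the pan-B-cell scale 4 of 13 were called higher and 0 lower against normal spleen by edgeR's quasi-likelihood test (0 lower also at an unadjusted p under 0.05), beside 77.1% and 0.589% of all genes. With the geometric mean 8 were called higher. The gene that rose, Tnfrsf17, encodes BCMA, a receptor of plasma cells that binds APRIL and BAFF; it averaged 6.58 ± 4.03 CPM in Myc lymphomas and 0.909 ± 0.673 CPM in normal spleen (2.85 ± 0.56, adjusted p = 5.7e-04). Tnfrsf17, which stayed higher on the pan-B-cell scale (4.39, adjusted p = 4.1e-06), was also the only one of the 13 called in vector lymphomas against normal spleen, at 7.27 ± 3.05 CPM in vector lymphomas (2.99 ± 0.56, adjusted p = 0.0017). In the earlier runs alone Tnfrsf17 stayed called in Myc lymphomas (2.59, adjusted p = 0.012) and was not called in vector lymphomas (2.75, adjusted p = 0.11). The summed level of 5 plasma cell markers (Sdc1, Xbp1, Prdm1, Jchain and Irf4) was 721 to 3801 CPM in Myc lymphomas, 4539 to 8001 CPM in vector lymphomas and 549 to 836 CPM in normal spleen, and its part in these values was not tested.

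Of the 5 T cell genes whose products bind the ligands (Cd28, Ctla4, Icos, Pdcd1 and Cd27), Ctla4 fell in Myc relative to vector lymphomas, at 22.2 ± 13.6 CPM in Myc and 55.0 ± 43.6 CPM in vector lymphomas (-1.31 ± 0.50, adjusted p = 0.036). No other of the 5 was called there, where 21.9% of all genes were called lower and 26.6% higher. A count of 1 in 5 is close to the share called lower and is not a result about the list. For Ctla4 the difference within the earlier runs was -2 (adjusted p = 0.092), and on the pan-B-cell scale 0.55 (adjusted p = 0.37). The other 4 were called higher on that scale, beside 85% of all genes. Pdcd1, which encodes PD-1, averaged 28.7 ± 13.9 CPM in Myc lymphomas, 40.4 ± 19.7 CPM in vector lymphomas and 8.13 ± 1.26 CPM in normal spleen, and was higher than in normal spleen in both Myc (1.82 ± 0.44, adjusted p = 0.0030) and vector lymphomas (2.31 ± 0.45, adjusted p = 0.0023), on the pan-B-cell scale too (3.62, adjusted p = 1.7e-05, and 2.19, adjusted p = 0.020). With TMM no other of the 5 was called against normal spleen. There 21.5% of all genes were called higher in Myc lymphomas and 7.46% in vector lymphomas. Pdcd1 in the earlier runs alone stayed called in Myc lymphomas (1.75, adjusted p = 0.025) and was not called in vector lymphomas (2.62, adjusted p = 0.071). The summed level of 8 T cell markers was 680 to 1329 CPM in Myc lymphomas, 568 to 1152 CPM in vector lymphomas and 1100 to 1258 CPM in normal spleen. None of the 8 markers was at 0 in any sample. The part of T cells in the level of Pdcd1 was not tested.

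Among 18 other costimulatory and checkpoint surface genes, 17 were tested, and Vtcn1 had 0 counts in all 20 samples. In Myc relative to vector lymphomas 7 fell and 1 rose (median log2 fold change -0.41), beside 21.9% and 26.6% of all genes. Within the earlier runs 4 fell and 0 rose, where 4.4% of all genes were called lower. Slamf1, a self-binding receptor of the SLAM family, averaged 8.23 ± 3.24 CPM in Myc and 68.0 ± 18.9 CPM in vector lymphomas (-3.05 ± 0.25, adjusted p = 2.2e-08). Cd40, the receptor through which T cells activate B cells, averaged 15.2 ± 6.74 and 69.8 ± 9.81 CPM (-2.20 ± 0.23, adjusted p = 2.9e-07), and Cd200, a ligand that restrains myeloid cells, 14.3 ± 3.60 and 43.1 ± 8.22 CPM (-1.59 ± 0.16, adjusted p = 2.3e-07), in Myc and vector lymphomas. The gene that rose was Lgals9, which encodes galectin-9 (1.16 ± 0.23, adjusted p = 3.4e-04; 1.22 and 0.11 within the earlier runs). Relative to normal spleen 7 fell and 1 rose, beside 17.9% and 21.5% of all genes. Cd40 was again lower, at -2.31 ± 0.26 (adjusted p = 2.1e-06), and Cd24a rose by 0.66 ± 0.23 (adjusted p = 0.029). There 5 of 17 fell within the earlier runs, against 7.97% of all genes, and Cd24a was not called (0.70, adjusted p = 0.12). On the pan-B-cell scale 12 of 17 were called higher and 2 lower in Myc than in vector lymphomas, beside 85% and 1.21% of all genes. The lower ones were Slamf1 (-1.35, adjusted p = 1.6e-04) and Cd40 (-0.65, adjusted p = 0.0064), while Cd200 was at 0.16 (adjusted p = 0.58). Against normal spleen 11 of 17 were called higher on that scale and 1 lower, Cd40 (-0.83, adjusted p = 0.0053), beside 77.1% and 0.589% of all genes. Between vector lymphomas and normal spleen 0 of 17 were called by edgeR's quasi-likelihood test, with 2 higher and 4 lower at an unadjusted p under 0.05, and DESeq2 called 2 higher; 3.36% of all genes were called lower there.

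Conventional dendritic cells also carry most of these ligands. Their 7 markers (Itgax, Zbtb46, Flt3, Xcr1, Clec9a, Cd209a and Clec10a) summed to 83.3 to 255 CPM in Myc lymphomas, 87.0 to 224 CPM in vector lymphomas and 167 to 212 CPM in normal spleen, and none was at 0 in any sample. In Myc relative to vector lymphomas 4 of the 7 fell and Flt3 rose, where 21.9% of all genes were called lower and 26.6% higher. On the pan-B-cell scale 5 were called higher and 0 lower (0 also at an unadjusted p under 0.05), beside 85% and 1.21% of all genes. Of 6 markers of plasmacytoid dendritic cells, which carry B220 themselves, 4 rose and 0 fell in Myc relative to vector lymphomas by edgeR's quasi-likelihood test (0 also at an unadjusted p under 0.05 and by DESeq2), beside 26.6% and 21.9% of all genes. These 6 summed to 197 to 1298 CPM in Myc lymphomas, 273 to 408 CPM in vector lymphomas and 465 to 621 CPM in normal spleen. Tcf4 and Ly6d, the 2 not called, had the highest means of the 6 in vector lymphomas, at 152 and 145 CPM. The 4 that rose averaged 122 (Siglech), 67.4 (Ccr9), 68.55 (Klk1) and 8.38 CPM (Cox6a2) in Myc lymphomas. In vector lymphomas these 4 averaged 16.7, 11.35, 4.37 and 1.295 CPM, in that order. Neutrophil markers (7 genes) summed to 1600 to 16430 CPM in Myc lymphomas, 53.05 to 5748 CPM in vector lymphomas and 76.1 to 898 CPM in normal spleen, and macrophage and monocyte markers (9 genes) to 704 to 2561, 576 to 2398 and 713 to 1552 CPM in Myc lymphomas, vector lymphomas and normal spleen. Markers of NK and cytotoxic cells (Ncr1, Klrb1c, Gzma, Gzmb, Prf1 and Nkg7) summed to 133 to 578 CPM in Myc lymphomas, 28.0 to 59.97 CPM in vector lymphomas and 121 to 204.9 CPM in normal spleen, and 5 of the 6 rose in Myc relative to vector lymphomas (2 of 6 within the earlier runs). Over all runs 26.6% of all genes were called higher in Myc than in vector lymphomas, a share that does not apply to the earlier runs alone. Every Myc lymphoma lay above every vector lymphoma in the sum of these 6 markers. Erythroid markers (5 genes, with Alas2 and Klf1 among them) summed to 915 to 6288 CPM in Myc lymphomas, 504 to 2955 CPM in vector lymphomas and 25.0 to 611 CPM in normal spleen, and 1 of the 5 rose in Myc relative to vector lymphomas. All 5 rose in both lymphoma groups relative to normal spleen, in vector lymphomas only over all runs (within the earlier runs edgeR's quasi-likelihood test called 0 of 5 there, 0 also at an unadjusted p under 0.05). Relative to normal spleen, over all runs, 21.5% of all genes were called higher in Myc lymphomas and 7.46% in vector lymphomas. None of these NK, cytotoxic and erythroid markers was at 0 in any sample. The part of these cells in the members' levels was not tested.

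For each member the genes with the nearest log2 CPM pattern over the 20 samples were found by the root mean square difference after centring, a description with no test. Nearest to Icosl was Cd40 (0.27, where the spread of Icosl itself was 1.28), followed by Mapk11 and Srpk3. Nearest to Tnfrsf13c was Fcrl1 (0.18, spread 0.90), then Gga2 and Nuak2, and nearest to Tnfrsf13b were Susd1, Btk and Dapp1 (0.20 to 0.22, spread 0.47). Cd274 was nearest to Stk17b (0.23, spread 1.00), then Pde4b and Nedd9. Cd86 and Cd83 shared Rab30 as their nearest gene (0.32 for both), followed by Noxred1 and Hmgn3 for Cd86 and by Pdlim7 and Il4i1 for Cd83. Pdcd1lg2 was nearest to Trp53i11 (0.32) and Camkk1 (0.375), and Cd80 to Nanos1, 6530402F18Rik and Mapre3 (0.33 to 0.39). Cd70, with its few counts, had no gene closer than 0.79 (Ntf5), with Car13 and Apoc2 next. These points share libraries and group differences, so the differences between groups enter this nearness.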

How the data were processed

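The deposited values are counts per Ensembl gene, 1 column per sample, made by the authors from Ion Proton reads of poly-adenylated RNA per the labels' protocols, and no scaling of them is recorded. HTSeq, Picard 1.119, BWA 0.7.5a and, as builds, NCBIM37 and mm9 appear in the submitters' processing notes without a role or order. Strand and multi-mapping settings are not given in the sources used here. Of all reads, 14.3 to 40.3% were not uniquely aligned and 8.26 to 24% lay in no gene. A further 0.986 to 16.4% were not aligned and 0.214 to 0.365% were ambiguous. None of these entered a library size or test. The share of reads counted on genes differed by group. Each Myc lymphoma had between 38.1 and 48.8% of its reads there. For normal spleen this share ran from 52.1 to 57%. Among vector lymphomas, replicate 1 stood at 37.1% and the rest at 51.9 to 54.9%. The effect of this difference on the comparisons was not tested. GENCODE vM21 gave symbols (32897 identifiers matched, 4723 did not) and merged exon lengths; its build differs from that of the files, so no coordinate was joined to them.

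Genes were filtered with filterByExpr by group (17824 of 25632 with a count kept, all 9 members among them), with TMM scaling, and all 20 samples of the 3 groups entered 1 fit, whose contrasts were tested by the two-sided quasi-likelihood test of edgeR 4.0.16. Genes with a Benjamini-Hochberg adjusted p under 0.05 over all genes were called. The common biological coefficient of variation was 0.47. CPM use TMM-scaled library sizes, and log2 CPM a prior count of 2. Ratios use counts plus 2 and exact permutation over samples. Alternatives were DESeq2 1.42.0, RLE size factors, no filter, pairs of groups alone, earlier runs, a run term, pan-B-cell scaling and each sample left out; the fits were checked on data with known changes. Earlier and later runs were told apart by each instrument's run numbers. The 9 members, the gene lists (13 lists with the members' cell types and pathways, 101 listed genes) and the rules for naming genes were chosen with earlier results of these data known. Genes named are the members, the 2 to 4 list genes with the smallest p, the genes nearest to each member, and, after their values were seen, genes that were alone in rising or in being called in a list. Some genes that these rules or lists name are not reported here.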

Additional observations from a re-analysis of the deposited data

Results flagged for a closer look

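Of the 27 sets of values examined (9 genes in 3 groups), 1 held a sample far from the rest. Cd83 stood at 300.5 CPM in normal replicate 4, while the other 3 normal samples lay at 182 to 196.5 CPM. The gap to the next sample made up a share of 0.877 of the group's whole range, above Dixon's critical value for 4 samples. Chance alone gives such a sample in about 1 in 20 groups. The same normal replicate also had the highest Cd274 of its group (116 CPM). Without it the difference in Cd83 between Myc lymphomas and normal spleen no longer passed the threshold (-0.70, adjusted p = 0.071), and its cause was not tested.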

How the results depend on the processing

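No paired analysis was possible because the replicate numbers only name samples in accession order and the numbers in the titles recur within a group. The falls of Icosl in Myc lymphomas relative to both other groups kept direction and call under every alternative run. With the summed counts of 8 pan-B-cell genes set equal, members called numbered 3 in Myc against vector lymphomas, 3 against normal spleen and 0 in vector lymphomas against normal spleen, and all genes called 15364, 13839 and 769. In Myc against vector lymphomas the log2 fold change turned to 1.28 for Cd80, 0.34 for Cd274, 0.48 for Cd83, 1.08 for Tnfrsf13b and 0.022 for Tnfrsf13c, and against normal spleen to 0.44 for Cd86, 0.82 for Pdcd1lg2, 0.60 for Cd83 and 0.81 for Tnfrsf13b.

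The next 3 settings were chosen after the data were seen. With the geometric mean of the 8 genes, 4 members and 15760 genes were called in Myc against vector lymphomas, 14791 genes against normal spleen, and 0 members and 982 genes in vector lymphomas against normal spleen. In Myc against vector lymphomas Cd80 was at 1.32, Cd86 at 0.082, Cd274 at 0.40, Cd83 at 0.59, Tnfrsf13b at 1.19 and Tnfrsf13c at 0.14, and against normal spleen Cd86 at 0.58, Cd274 at 0.074, Pdcd1lg2 at 0.94, Cd83 at 0.74, Tnfrsf13b at 0.94 and Tnfrsf13c at 0.057. With Myc 5 left out as well, 4 members and 15982 genes were called against vector lymphomas and 15440 genes against normal spleen. Cd80 was then at 1.47, Cd86 at 0.13, Cd274 at 0.57, Cd83 at 0.63, Tnfrsf13b at 1.24 and Tnfrsf13c at 0.16 against vector lymphomas, and Cd86 at 0.62, Cd274 at 0.24, Pdcd1lg2 at 1.00, Cd83 at 0.79, Tnfrsf13b at 0.99 and Tnfrsf13c at 0.078 against normal spleen. With summed counts and Myc 5 left out, 4 members and 15868 genes were called against vector lymphomas and 15165 genes against normal spleen. Cd80 was then at 1.45, Cd86 at 0.092, Cd274 at 0.51, Cd83 at 0.58, Tnfrsf13b at 1.19 and Tnfrsf13c at 0.11 against vector lymphomas, and Cd86 at 0.55, Cd274 at 0.16, Pdcd1lg2 at 0.93, Cd83 at 0.70, Tnfrsf13b at 0.91 and Tnfrsf13c at 0.0012 against normal spleen. The cause of these turns was not tested.

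Within the earlier runs 5 members and 1363 genes were called in Myc against vector lymphomas, 3820 genes in Myc lymphomas against normal spleen, and 0 members and 123 genes in vector lymphomas against normal spleen, with fewer samples in each fit. There the ratio of Tnfrsf13b to Tnfrsf13c differed by 1.02 from vector lymphomas (adjusted p = 0.10) and by 0.83 from normal spleen (adjusted p = 0.055), and in vector lymphomas against normal spleen the ratios of Cd86 to Cd80 and Pdcd1lg2 to Cd274 differed by -0.36 (adjusted p = 0.26) and 1.46 (adjusted p = 0.18), all by exact permutation. With a run term 3382 genes were called in Myc against vector lymphomas, and 2 members and 1225 genes in vector lymphomas against normal spleen. In that comparison DESeq2 called 2 members, and a fit of the 2 groups alone 2 members and 3503 genes.

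Leaving out each sample in turn gave 8 to 9 members called in Myc against vector lymphomas, 6 to 7 against normal spleen and 1 in vector lymphomas against normal spleen, where genes called ranged from 1089 to 2139. The ratio of Cd86 to Cd80 then ranged from -1.05 to -0.59 in Myc against vector lymphomas, from -1.46 to -1.01 against normal spleen and from -0.52 to -0.29 in vector lymphomas against normal spleen. That of Pdcd1lg2 to Cd274 ranged from -0.75 to -0.30 in Myc against vector lymphomas and from 1.26 to 1.56 in vector lymphomas against normal spleen. Cd70, at 0 to 59 counts a sample, is limited by depth, and counting intervals do not cover the spread between samples.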

Other observations

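Among the 36 pairs of the 9 genes, Cd86 and Pdcd1lg2 ran closest over the 20 samples (root mean square difference 0.43 in centred log2 CPM), followed by Cd86 and Tnfrsf13c (0.43) and by Cd83 and Cd86 (0.44). Tnfrsf13b and Tnfrsf13c differed by 0.54, and Cd80 and Cd86 by 0.81. Cd274 and Pdcd1lg2, neighbours on chromosome 19 and ligands of PD-1, differed by 0.89. Apart from pairs with Cd70, which had few counts, the widest were Cd80 and Icosl (1.25). The samples are shared by all pairs, so these values only describe them.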
